A study of Mus musculus with 6 samples.

Results

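Of 13605 named genes counted in liver regulatory T cells, 47 were taken by name for the machinery that carries proteins into mitochondria and shapes the folds (cristae) of the inner membrane. Some of the 47 share only a name prefix with that machinery. Transcripts of all 47 were compared between Altre-KO and Altre-WT mice. The members were chosen by name: every row beginning with Tomm, Timm, Chchd or Micos, plus Samm50, Mtx1, Mtx2, Immt, Apoo, Apool, Pam16, Dnajc19, Hspa9, Grpel1, Grpel2, Pmpca, Pmpcb, Phb and Phb2. Differences between the genotypes were small for nearly all of them. For 45 of the 47 members the log2 fold change, Altre-KO over Altre-WT, lay between -0.35 and 0.33. The remaining pair were Timm29, a subunit of the carrier translocase, at -1.23 ± 0.63 (SE), and the low antisense transcript Tomm6os, at 0.84 ± 0.94 (SE) and at 0.07 without Altre-KO library 3. No member passed an adjusted p of 0.05 in the edgeR quasi-likelihood test, and Timm29 passed that threshold in the authors' deposited table.

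Most mitochondrial proteins are made in the cytosol and enter through the TOM complex of the outer membrane. From there the SAM complex inserts barrel-shaped proteins into the outer membrane, the oxidoreductase Chchd4 traps cysteine-rich proteins in the intermembrane space, small TIM chaperones pass hydrophobic carriers to the TIM22 complex, and proteins with a presequence go through the TIM23 channel, are pulled in by the Hspa9 motor and are cleaved by a matrix protease. The MICOS complex holds the cristae junctions, and the prohibitins form ring scaffolds in the inner membrane. Regulatory T cells (Tregs), a Foxp3-positive class of CD4 T cells, hold back immune responses and are known to draw on mitochondrial respiration.

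The data were 6 mRNA sequencing libraries of untreated Tregs from the livers of mice aged 14 months, 3 from Altre knockout mice (Altre-KO) and 3 from mice with intact Altre (Altre-WT). Altre is a long non-coding RNA found in Tregs. The comparison asks what the loss of Altre does to transcripts of liver Tregs in ageing mice. The labels give no strain, no sex, no design of the deletion and no cell type to which it is limited. The libraries were made from little RNA with a SMARTer kit. Nothing in the labels ties each library to its own animal, and p-values therefore reflect only how far these samples scatter, part of which may be technical.

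Counts summed to between 25315425 and 30870786 per library. Altre itself was not analysed here, so the genotype labels were not checked by the deleted gene. All 7 Treg markers were measured, 5 with a higher and 2 with a lower mean in Altre-KO. Levels are in CPM, each count divided by its TMM-scaled library total and set on a common scale. The Treg markers summed to 4317 to 5275 CPM in Altre-KO libraries and 3889 to 4270 CPM in Altre-WT libraries. Cd4 and Il2ra were higher in every Altre-KO library than in any Altre-WT library, and the 2 lower ones were Ikzf2 and Tnfrsf18. Of 14 macrophage and Kupffer cell markers 13 were measured, 11 with a higher and 2 with a lower mean in Altre-KO, and they summed to 248, 357 and 365 CPM in Altre-KO libraries 1, 2 and 3, against 238, 199.9 and 215 CPM in Altre-WT libraries 1, 2 and 3. Endothelial markers (2 of 4 measured) summed to 139, 156 and 158 CPM in Altre-KO libraries 1, 2 and 3, all above the 126, 113 and 95.7 CPM in Altre-WT libraries 1, 2 and 3. Nearly all of each sum was Pecam1, at 139 to 155 CPM in Altre-KO and 94.6 to 124 CPM in Altre-WT. Stab2 was low, at 0.67, 2.63 and 2.77 CPM in Altre-KO, against 1.86, 1.54 and 1.07 CPM in Altre-WT, and its groups overlapped. CD8 T and NK cell markers (3 of 6 measured) summed to 120.4, 115 and 100.2 CPM in Altre-KO, against 76.6, 94.9 and 256 CPM in Altre-WT, where library 3 stood apart through Nkg7. In that library Nkg7 was at 238 CPM. Cd8b1 was there at 16.0 CPM, within the Altre-KO range of 10.7 to 22.1 CPM, and Gzma, at 1.81 CPM, was the lowest of the Altre-WT values. B cell markers (4 of 4 measured) summed to 67.4, 67.4 and 65.5 CPM in Altre-KO, against 56.6, 68.6 and 83.2 CPM in Altre-WT. Of 2 neutrophil markers 1 was measured, S100a8, at 0, 0.04 and 0 CPM in Altre-KO, against 1.17, 0.40 and 0.04 CPM in Altre-WT. Of 5 hepatocyte markers 0 were among the genes analysed here. The part of other cells in the values that follow was not tested, and in a bulk sample fewer cells of a type and less RNA per cell cannot be told apart.

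All 47 members passed the filter on low counts, as part of 12789 genes tested. In the edgeR quasi-likelihood test with Benjamini-Hochberg adjustment, 0 of 47 members passed an adjusted p of 0.05, where 0 of 12789 genes did (0%). At an unadjusted p of 0.05 there were also 0 members, against 744 of all genes (5.82%), of which 2.72% of the genes tested had a higher and 3.1% a lower mean in Altre-KO. DESeq2 and limma-voom with genotype as the only term each called 0 members. Over all genes DESeq2 called 49 of the 12784 to which it gave an adjusted p (0.383%), and limma-voom called 0 of 12789. The smallest p among the members was 0.0806, for Timm29, with an adjusted p of 0.890. By the authors' deposited table a single member, Timm29, had an adjusted p under 0.05, where 247 of 13605 genes did (1.82%).

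The directions were mixed. By the sign of the fitted fold change 26 members had a higher and 21 a lower mean in Altre-KO, and 50.8% of all genes tested had a higher one. That split turned when either of 2 libraries was left out, with 16 members higher without Altre-KO library 2 and 18 without Altre-WT library 1. The median log2 fold change of the members was 0.02, beside 0.00389 over all genes tested, and the members' quartiles were -0.07 and 0.10, beside -0.19 and 0.19.

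The members' differences were also more closely bounded than those of all genes tested, though not within 0.5 for every member. The 95% interval of the log2 fold change lay wholly between -0.5 and 0.5 for 25 members (53.2%), as it did for 25.3% of all genes tested, and wholly between -1 and 1 for 45 members (95.7%), beside 60% of all genes. The median size of the log2 fold change was 0.0861 for the members, 0.192 for all genes and 0.162 for the 10690 genes averaging at least 50 counts. The members were deeply counted, with a median of 1460 reads per library beside 555 over all genes. Exons of 21 members overlap those of another gene and 9 members have a similar copy elsewhere, which makes part of those counts uncertain. The members' median SD within a genotype was 0.173 log2 units, beside 0.303 over all genes tested and 0.257 over those averaging at least 50 counts.

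**Figure D1:**
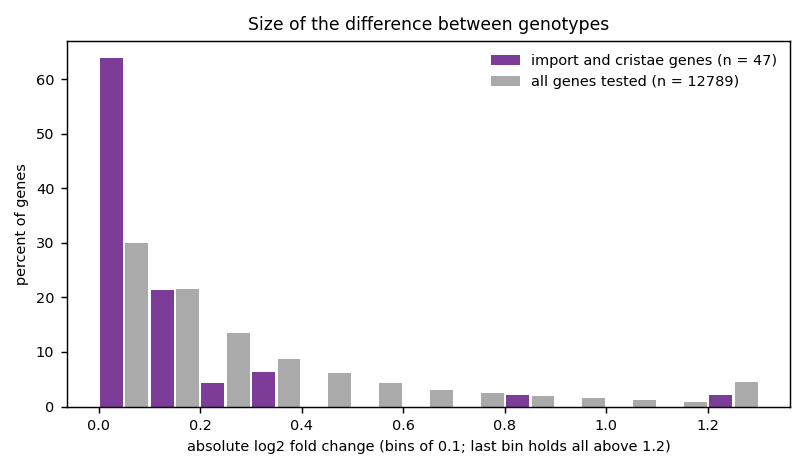
Share of genes (percent, vertical axis) by the size of the log2 fold change between Altre-KO and Altre-WT (horizontal axis, bins of 0.1, the last bin holding all above 1.2), for the 47 import and cristae genes and for all 12789 genes tested. The import and cristae genes crowd into the lowest bins, with a median of 0.0861, beside 0.192 for all genes. The 2 members past 0.5 (4.26%, beside 20.1% of all genes) are Tomm6os and Timm29.

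**Figure D2:**
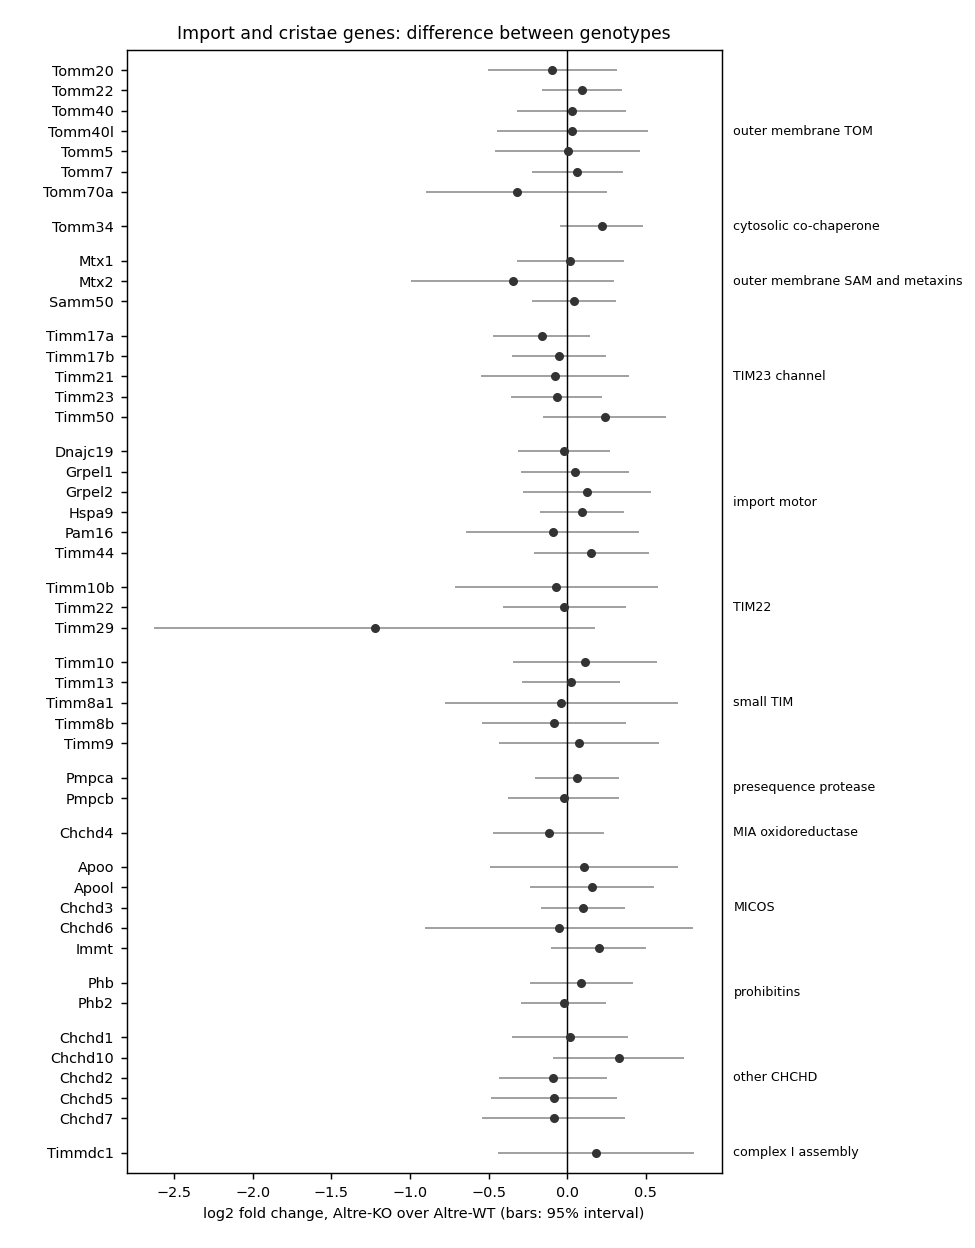
Log2 fold change of Altre-KO over Altre-WT (horizontal axis) for 46 members in order of role, with points for the edgeR estimate and bars for its 95% interval; Tomm6os is left out because it averaged 13.5 reads per library. Every interval drawn spans 0, and Timm29 is the point at the far left with the widest bar.

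The TOM complex was the first group. Its 7 measured genes summed to 567 ± 48.2 CPM in Altre-KO and 563 ± 49.4 CPM in Altre-WT (SD, n = 3 libraries each), with 5 members higher and 2 lower in mean and none passing the test. Tomm20, a receptor that binds presequences, was counted at 102, 149 and 136 CPM in Altre-KO libraries 1, 2 and 3, against 107, 157 and 148 CPM in Altre-WT libraries 1, 2 and 3. Its log2 fold change was -0.09 ± 0.18 (SE), the first library of each genotype was the lowest and the groups overlapped; 4 similar copies elsewhere in the genome make its count uncertain. Tomm22, the central receptor that also holds the complex together, was at 139, 158 and 155 CPM in Altre-KO, against 139.7, 139 and 145 CPM in Altre-WT, with a log2 fold change of 0.09 ± 0.11. Altre-KO library 1 lay among the Altre-WT values, so these groups overlapped too.

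The pore of the complex is Tomm40, which was at 62.7, 47.4 and 55.7 CPM in Altre-KO, against 55.7, 56.3 and 50.4 CPM in Altre-WT. Its log2 fold change of 0.03 ± 0.16 came with the lowest and the highest values both in Altre-KO libraries. The small subunit Tomm7, which modulates assembly of the complex, was at 121, 140.3 and 123 CPM in Altre-KO, against 109, 126 and 132 CPM in Altre-WT, with a log2 fold change of 0.06 ± 0.13 and the lowest value in Altre-WT library 1. Tomm70a, the receptor for carrier precursors handed over by cytosolic chaperones, was at 18.9, 21.3 and 15.8 CPM in Altre-KO, against 30.8, 22.8 and 16.4 CPM in Altre-WT. Its log2 fold change of -0.32 ± 0.26 (95% interval -0.90 to 0.25, adjusted p = 0.953, edgeR) rested on Altre-WT library 1, without which it was -0.07. The small subunit Tomm5 and the pore paralog Tomm40l had log2 fold changes of 0.00 and 0.03; Tomm40l shares 3304 exon bases with Nr1i3 on the opposite strand, and whether counting used strand is not stated, so its count is uncertain.

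Tomm34, despite its name a soluble co-chaperone that joins Hsp70 and Hsp90 on the way to mitochondria, was at 189, 172 and 156 CPM in Altre-KO libraries 1, 2 and 3, against 150.1, 147 and 148 CPM in Altre-WT libraries 1, 2 and 3. All 3 Altre-KO libraries lay above all 3 Altre-WT libraries, and Tomm34 was the only member of 47 whose groups did not overlap; among all genes tested Altre-KO lay above Altre-WT in 716 (5.6%) and below it in 597 (4.67%). It averaged 173 ± 16.8 CPM in Altre-KO and 148 ± 1.75 CPM in Altre-WT (SD, n = 3 each). The log2 fold change was 0.22 ± 0.12 (95% interval -0.04 to 0.48), with an adjusted p of 0.896 in the edgeR test, so the difference did not pass.

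Of the SAM complex and the metaxins, Samm50, the barrel that inserts other barrel proteins, was at 206, 219.9 and 189 CPM in Altre-KO, against 179, 215 and 202 CPM in Altre-WT. Its log2 fold change was 0.04 ± 0.12 with a 95% interval of -0.22 to 0.31, the highest value was in Altre-KO library 2 and the lowest in Altre-WT library 1, and the groups overlapped. Mtx2, a metaxin that works beside Samm50 on the cytosolic face, was more scattered, at 50.3, 26.2 and 21.2 CPM in Altre-KO libraries 1, 2 and 3, against 44.4, 42.9 and 36.9 CPM in Altre-WT libraries 1, 2 and 3. Altre-KO libraries 2 and 3 were the lowest of the 6 and Altre-KO library 1 was the highest, so the groups overlapped. Its log2 fold change was -0.35 ± 0.29 (95% interval -0.99 to 0.30, adjusted p = 0.964, edgeR), which was -0.80 without Altre-KO library 1, -0.23 without Altre-KO library 2 and -0.11 without Altre-KO library 3. Its partner Mtx1 was at 56.0, 58.7 and 48.2 CPM in Altre-KO, against 58.1, 47.9 and 54.6 CPM in Altre-WT, with a log2 fold change of 0.02 ± 0.15; 759 of its exon bases are shared with a transcript on the opposite strand.

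**Figure D3:**
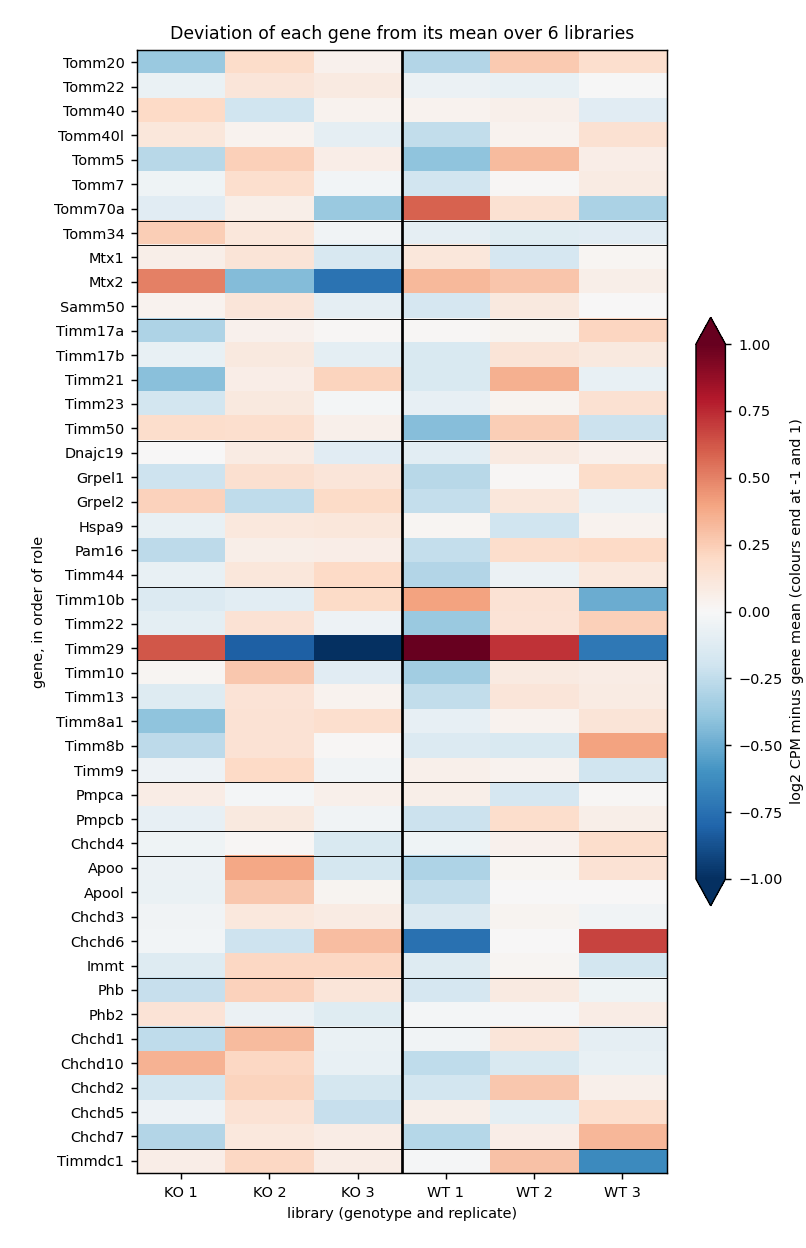
Deviation of each of 46 members from its mean over the 6 libraries (colour, log2 units, ending at -1 and 1), with genes in order of role down the page and libraries across, Altre-KO left of the line and Altre-WT right of it. Timm29 has the deepest colours, red in the first library and blue in the third library of both genotypes, and most other rows stay near white.

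The TIM23 channel genes summed to 483 ± 38.6 CPM in Altre-KO and 495 ± 46.2 CPM in Altre-WT, and 1 of 5 had a higher and 4 a lower mean in Altre-KO. Timm23, the channel protein itself, was at 108, 132 and 122 CPM in Altre-KO, against 116, 126 and 137 CPM in Altre-WT. The log2 fold change was -0.07 ± 0.13, the lowest library was an Altre-KO one and the highest an Altre-WT one, and 6 similar genomic copies make the count uncertain. Timm17a, a channel partner, was at 101, 129 and 127 CPM in Altre-KO, against 126, 128 and 145 CPM in Altre-WT, with a log2 fold change of -0.16 ± 0.14 (95% interval -0.47 to 0.15). Altre-KO library 1 was the lowest, the groups overlapped, and without that library the log2 fold change was -0.06. Timm50, the receptor that takes presequences from the TOM complex, was at 101, 99.8 and 92.1 CPM in Altre-KO, against 66.1, 105 and 76.7 CPM in Altre-WT. The Altre-KO libraries lay close together between the lowest and the highest Altre-WT library, with a log2 fold change of 0.24 ± 0.18 (95% interval -0.15 to 0.63, adjusted p = 0.938, edgeR), which was 0.44 without Altre-WT library 2 and 0.10 without Altre-WT library 1. Timm17b, the second form of the channel partner, and Timm21, which links the channel to TOM and to the respiratory chain, had log2 fold changes of -0.05 and -0.08.

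In the import motor the 6 genes summed to 565 ± 37.4 CPM in Altre-KO and 539.7 ± 41.4 CPM in Altre-WT, with 4 higher and 2 lower in mean. Hspa9, the matrix Hsp70 (mortalin) that pulls proteins through the channel, was at 190.1, 216 and 216.8 CPM in Altre-KO, against 203, 174 and 206 CPM in Altre-WT. Altre-WT library 2 was the lowest, the groups overlapped, and the log2 fold change was 0.10 ± 0.12, or 0.01 without that library. Timm44, which tethers Hspa9 to the channel, was at 45.6, 52.2 and 55.2 CPM in Altre-KO, against 39.4, 46.2 and 51.9 CPM in Altre-WT, with a log2 fold change of 0.15 ± 0.16 (95% interval -0.21 to 0.52). Within each genotype library 1 was the lowest and library 3 the highest, the groups overlapped, and without Altre-WT library 1 the log2 fold change was 0.06. The nucleotide exchange factors Grpel1 and Grpel2, which release Hspa9 from ADP, had log2 fold changes of 0.05 and 0.13, and the J-protein partners Dnajc19 and Pam16 of -0.02 and -0.09.

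Timm29, known from human cells as a subunit of the TIM22 complex that inserts metabolite carriers into the inner membrane, was the member that varied most. It lies on chromosome 9 (GRCm38, 21592722 to 21595970, plus strand) and is a protein-coding gene. It was at 34.3, 12.7 and 7.44 CPM in Altre-KO libraries 1, 2 and 3, against 76.6, 36.9 and 13.6 CPM in Altre-WT libraries 1, 2 and 3, from 870, 319 and 231 reads in Altre-KO and 2221, 933 and 369 reads in Altre-WT. Library 1 was the highest and library 3 the lowest in both genotypes, Altre-KO library 1 lay above Altre-WT library 3, and the groups overlapped. The means were 18.2 ± 14.2 CPM in Altre-KO and 42.4 ± 31.8 CPM in Altre-WT (SD, n = 3 each).

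The log2 fold change of Timm29 was -1.23 ± 0.63 (SE), with a 95% interval of -2.63 to 0.18 and an adjusted p of 0.890 in the edgeR test with genotype as the only term. The authors' deposited table gives -1.20 ± 0.22 (SE) with an adjusted p of 1.83e-05; its fold changes differ from those of a DESeq2 fit that also holds the replicate number by a median of 8.64e-05 log2 units, and from one on genotype alone by 0.0164. The estimate moved with replicate 1 of each genotype, being -2.07 without Altre-KO library 1 and -0.48 without Altre-WT library 1. Between libraries of the same number, the log2 ratios of Altre-KO over Altre-WT were -1.16, -1.54 and -0.87 for numbers 1, 2 and 3. Altre-KO was lower in all 3 numbers for 5 of 47 members (10.6%) and for 14.6% of all genes tested. With the replicate number as a block, edgeR gave Timm29 -1.19 ± 0.19 (SE, unadjusted p = 0.000225, adjusted p = 0.0791). The labels do not say that the numbers pair libraries. The SD of Timm29 within a genotype was 1.19 log2 units, the highest among the members, and 90.4% of all genes tested had a lower one.

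The start of Timm29 is shown because it is the member with the largest difference among those well counted. The window runs from 250 bases before to 50 after the start in RefSeq (GRCm38.p6), and capitals mark the match to CTTCCGG, the reverse complement of the ETS-factor letters CCGGAAG.
Timm29, chr9:21592472-21592771, plus strand: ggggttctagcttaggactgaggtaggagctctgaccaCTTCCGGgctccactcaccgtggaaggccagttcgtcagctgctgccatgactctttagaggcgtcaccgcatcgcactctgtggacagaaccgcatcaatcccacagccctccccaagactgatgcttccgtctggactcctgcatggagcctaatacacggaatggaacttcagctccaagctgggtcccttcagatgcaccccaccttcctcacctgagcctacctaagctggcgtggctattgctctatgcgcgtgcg
The match begins at position -212 from the start, and it is a description of letters, not of binding. The richest 100 bases of the longest Timm29 transcript are 83% G and C, a share above that of 90.5% of genes with a model and above the members' median of 73%.

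The levels of GC-rich transcripts also differed between libraries. Among the 2233 genes averaging at least 50 counts whose richest 100 bases were 80% or more G and C, the median log2 fold change was -0.07 and 60.1% lay below 0. In that class the median deviations were 0.06, -0.11 and -0.04 log2 units in Altre-KO libraries 1, 2 and 3, against 0.13, 0.04 and -0.03 in Altre-WT libraries 1, 2 and 3. The class holds 6 well-counted members, Timm29, Timm8a1, Chchd10, Tomm40, Mtx2 and Tomm70a, and among them Chchd10 and Tomm40 had a higher mean in Altre-KO. In the class of 70% to 79%, with 4123 genes and 26 members, the median was 0.03 and 43.6% lay below 0. The part of base composition in the Timm29 values was not tested.

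**Figure D4:**
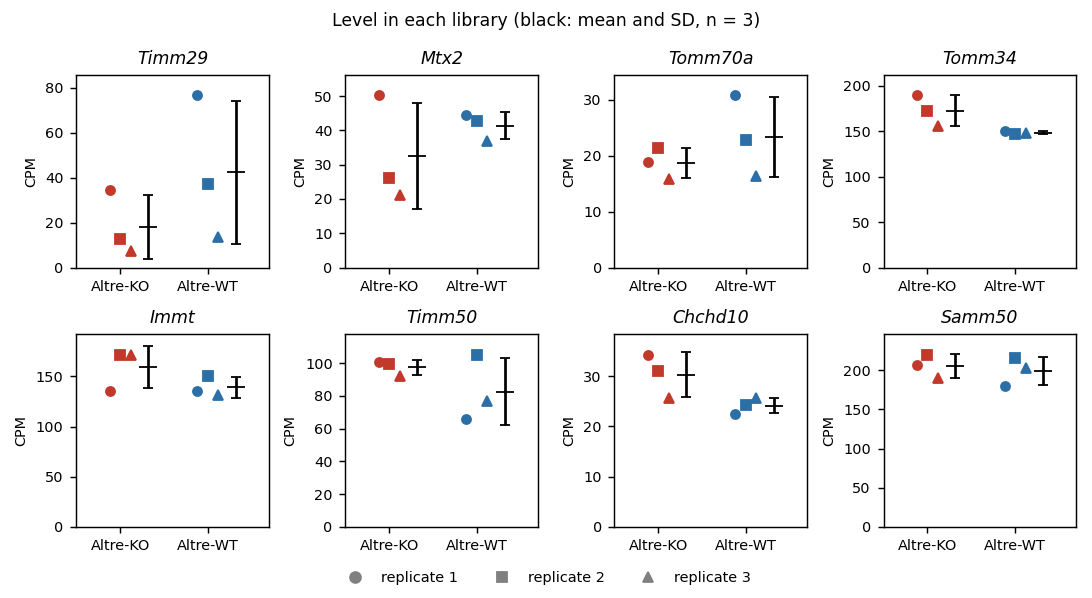
Level in each library (CPM, vertical axes starting at 0) of Timm29, Mtx2, Tomm70a, Tomm34, Immt, Timm50, Chchd10 and Samm50 in Altre-KO (left in each panel) and Altre-WT (right), with a symbol for each replicate and black bars for mean and SD of 3 libraries. The groups are separate for Tomm34, 156 to 189 CPM in Altre-KO and 147 to 150.1 CPM in Altre-WT, and overlap in the other panels.

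The other members of the TIM22 complex were steadier. Timm22, its channel, was at 72.7, 86.2 and 75.1 CPM in Altre-KO, against 60.2, 85.4 and 91.5 CPM in Altre-WT. The log2 fold change was -0.02 ± 0.18, the lowest and the highest library were both Altre-WT, and the sign turned under limma-voom (0.0036). Timm10b, a small TIM protein that human cells hold on the TIM22 complex, was at 9.31, 9.53 and 11.7 CPM in Altre-KO, against 13.5, 11.3 and 7.24 CPM in Altre-WT, with a log2 fold change of -0.07 ± 0.29 and both extremes in Altre-WT. Summed over the 3 genes the complex was at 116, 108 and 94.2 CPM in Altre-KO libraries 1, 2 and 3, against 150.3, 134 and 112 CPM in Altre-WT, and these groups overlapped.

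The small TIM chaperones, which shield hydrophobic precursors between the membranes, summed to 229.2 ± 23.2 CPM in Altre-KO and 226 ± 28.1 CPM in Altre-WT. Timm10, which forms a hexamer with Timm9 for carrier precursors, was at 25.6, 30.4 and 23.4 CPM in Altre-KO, against 19.9, 26.9 and 26.6 CPM in Altre-WT, with a log2 fold change of 0.11 ± 0.20. Timm13, which pairs with Timm8 proteins for other precursors, was at 135, 163 and 152 CPM in Altre-KO, against 125, 161 and 157 CPM in Altre-WT, with a log2 fold change of 0.03 ± 0.14. Both had their lowest value in Altre-WT library 1, and the groups overlapped. Timm8b was at 29.6, 39.3 and 35.8 CPM in Altre-KO, against 32.2, 31.99 and 46.9 CPM in Altre-WT, with a log2 fold change of -0.09 ± 0.21; its lowest library was Altre-KO library 1 and its highest Altre-WT library 3. Timm9 and Timm8a1, the mouse counterpart of the human deafness-dystonia gene, had log2 fold changes of 0.08 and -0.04.

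The matrix processing protease that removes presequences has a pair of subunits, and neither passed the test. Pmpca, which recognises the substrate, was at 126, 119 and 124 CPM in Altre-KO, against 125, 107 and 121 CPM in Altre-WT, with a log2 fold change of 0.06 ± 0.12, although 874 of its exon bases are shared with Inpp5e on the opposite strand. Pmpcb, the catalytic subunit, was at 48.1, 54.3 and 49.5 CPM in Altre-KO, against 43.9, 57.5 and 53.0 CPM in Altre-WT, with a log2 fold change of -0.02 ± 0.16. Chchd4, the oxidoreductase of the intermembrane space pathway, was at 34.7, 36.0 and 32.2 CPM in Altre-KO, against 34.7, 36.7 and 40.3 CPM in Altre-WT. Altre-WT library 3 was the highest and Altre-KO library 3 the lowest for Chchd4, with a log2 fold change of -0.12 ± 0.16.

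Of the MICOS genes 4 had a higher and 1 a lower mean in Altre-KO, and none passed the test. The 5 summed to 293, 351 and 342 CPM in Altre-KO libraries 1, 2 and 3, against 277, 315 and 296 CPM in Altre-WT libraries 1, 2 and 3. The sums overlapped, because Altre-KO library 1 lay below Altre-WT libraries 2 and 3. Immt (Mic60), the core protein that holds the cristae junction, was at 136, 172 and 172 CPM in Altre-KO, against 136, 150.3 and 131 CPM in Altre-WT. Altre-KO libraries 2 and 3 were the highest and Altre-KO library 1 lay within the Altre-WT range, with a log2 fold change of 0.20 ± 0.13 (95% interval -0.10 to 0.50, adjusted p = 0.938, edgeR), which was 0.31 without Altre-KO library 1. Chchd3 (Mic19), which bridges Immt to Samm50, was at 111, 122 and 120.3 CPM in Altre-KO, against 102, 116 and 111 CPM in Altre-WT, with a log2 fold change of 0.10 ± 0.12; its groups overlapped.

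Apool (Mic27), a MICOS subunit that binds cardiolipin, was at 30.4, 38.6 and 32.6 CPM in Altre-KO, against 27.1, 32.03 and 31.9 CPM in Altre-WT, with a log2 fold change of 0.16 ± 0.18. Altre-KO library 2 stood above the rest, and Altre-KO library 1 lay below Altre-WT libraries 2 and 3. The log2 fold change was 0.04 without Altre-KO library 2 and 0.08 without Altre-WT library 1. Its relative Apoo (Mic26) and the Chchd3 relative Chchd6 (Mic25) had log2 fold changes of 0.11 and -0.05. Chchd6 was scattered in Altre-WT, at 4.07, 6.81 and 10.9 CPM, beside 6.67, 5.90 and 8.41 CPM in Altre-KO. The subunits Mic10 and Mic13 are listed under older names that the naming rule does not pick up, Minos1 and 2410015M20Rik, and they were looked up after the members' values were seen. Minos1 was at 153, 189 and 159 CPM in Altre-KO, against 137, 166 and 192 CPM in Altre-WT, and 2410015M20Rik was at 143, 208 and 183 CPM in Altre-KO, against 145, 191 and 191 CPM in Altre-WT. Both had a log2 fold change of 0.02 with overlapping groups, and neither is counted among the 47.

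The prohibitins, which encircle patches of the inner membrane and hold its proteases, summed to 295 ± 14.4 CPM in Altre-KO and 288 ± 14.1 CPM in Altre-WT. Phb was at 127, 175 and 162 CPM in Altre-KO, against 133, 159 and 145 CPM in Altre-WT, with a log2 fold change of 0.09 ± 0.15; 3 similar genomic copies make its count uncertain. Phb2 was at 155, 135 and 129.9 CPM in Altre-KO, against 139, 139.6 and 148 CPM in Altre-WT, with a log2 fold change of -0.02 ± 0.12. For Phb library 1 was the lowest of both genotypes, and for Phb2 both extremes were Altre-KO libraries.

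Among the other CHCHD genes, which carry the twin cysteine motif that Chchd4 oxidises, Chchd2, a mitochondrial protein linked to human Parkinson disease, was at 289, 383 and 292 CPM in Altre-KO, against 289.7, 397 and 341 CPM in Altre-WT. Library 2 was the highest in both genotypes, the log2 fold change was -0.09 ± 0.15, and 4 similar genomic copies make the count uncertain. Its paralog Chchd10, linked to human motor neuron disease, was at 34.3, 31.1 and 25.6 CPM in Altre-KO libraries 1, 2 and 3, against 22.5, 24.3 and 25.6 CPM in Altre-WT libraries 1, 2 and 3. Altre-KO libraries 1 and 2 were the highest of the 6 and Altre-KO library 3 was level with Altre-WT library 3. The log2 fold change of Chchd10 was 0.33 ± 0.19 (95% interval -0.09 to 0.74, adjusted p = 0.907, edgeR). Chchd1, a subunit of the mitochondrial ribosome, and Chchd5 and Chchd7 had log2 fold changes of 0.02, -0.08 and -0.09.

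The last members share only a prefix with the import machinery. Timmdc1, an assembly factor of respiratory complex I in human cells, was at 11.5, 12.6 and 11.5 CPM in Altre-KO, against 10.9, 13.4 and 7.05 CPM in Altre-WT, with a log2 fold change of 0.18 ± 0.28. Altre-WT library 3 stood below the rest. Tomm6os is an antisense RNA on chromosome 17 (GRCm38, 47687610 to 47691083, plus strand) whose exons overlap those of Prickle4, Gm21981 and Tomm6 on the opposite strand, so its reads cannot be assigned without strand. It was at 0.316, 0.399 and 1.13 CPM in Altre-KO, against 0.345, 0.198 and 0.480 CPM in Altre-WT, with a log2 fold change of 0.84 ± 0.94 (95% interval -1.25 to 2.94). Altre-KO library 3 alone was high, and without it the log2 fold change was 0.07. The mean was 13.5 reads per library, and Tomm6 itself was not analysed here.

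Several members come as paralog pairs, and the share of the first in the pair's summed CPM per kilobase was compared by a two-sided exact permutation test, in which 3 against 3 libraries can reach no p below 0.1. Chchd10 made up 14.6%, 10.5% and 11.2% of the Chchd10 and Chchd2 pair in Altre-KO libraries, against 10.1%, 8.09% and 9.77% in Altre-WT libraries. The Altre-KO shares lay above the Altre-WT shares (exact permutation p = 0.1, and 0.7 adjusted over 7 pairs), so the difference did not pass the correction. Timm17a was 27.3 ± 2.40% of the Timm17a and Timm17b pair in Altre-KO and 29.0 ± 1.99% in Altre-WT (SD, n = 3 each; exact permutation p = 0.4).

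For the other 5 pairs the exact permutation p was between 0.7 and 1. Tomm40 was 79.6 ± 2.26% of its pair with Tomm40l in Altre-KO and 79.8 ± 3.03% in Altre-WT. Grpel1 was 87.0 ± 3.27% of its pair with Grpel2 in Altre-KO and 87.7 ± 1.34% in Altre-WT. Chchd3 was 93.6 ± 1.08% of its pair with Chchd6 in Altre-KO and 93.1 ± 2.92% in Altre-WT. In each of these pairs the form with the larger mean share in Altre-KO also had it in Altre-WT.

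Levels per exon length spread over a wide range. Chchd2 was highest at 142 CPM per kilobase in Altre-KO and 151 in Altre-WT, followed by Tomm7 at 114 CPM per kilobase in Altre-KO and 109 in Altre-WT and Timm13 at 109 CPM per kilobase in Altre-KO and 108 in Altre-WT. The libraries of Tomm7 and Timm13, neighbours in the order, overlapped. Immt stood at 14.1 CPM per kilobase in Altre-KO and 12.2 in Altre-WT and Samm50 at 31.3 CPM per kilobase in Altre-KO and 30.4 in Altre-WT. At the low end were Timm9 at 2.91 CPM per kilobase in Altre-KO and 2.76 in Altre-WT, Chchd6 at 2.76 CPM per kilobase in Altre-KO and 2.87 in Altre-WT and Tomm70a at 1.91 CPM per kilobase in Altre-KO and 2.39 in Altre-WT, all of whose libraries overlapped, and Tomm6os below them. The lengths take all annotated exons of a gene together, so a gene with long unused exons reads low.

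**Figure D5:**
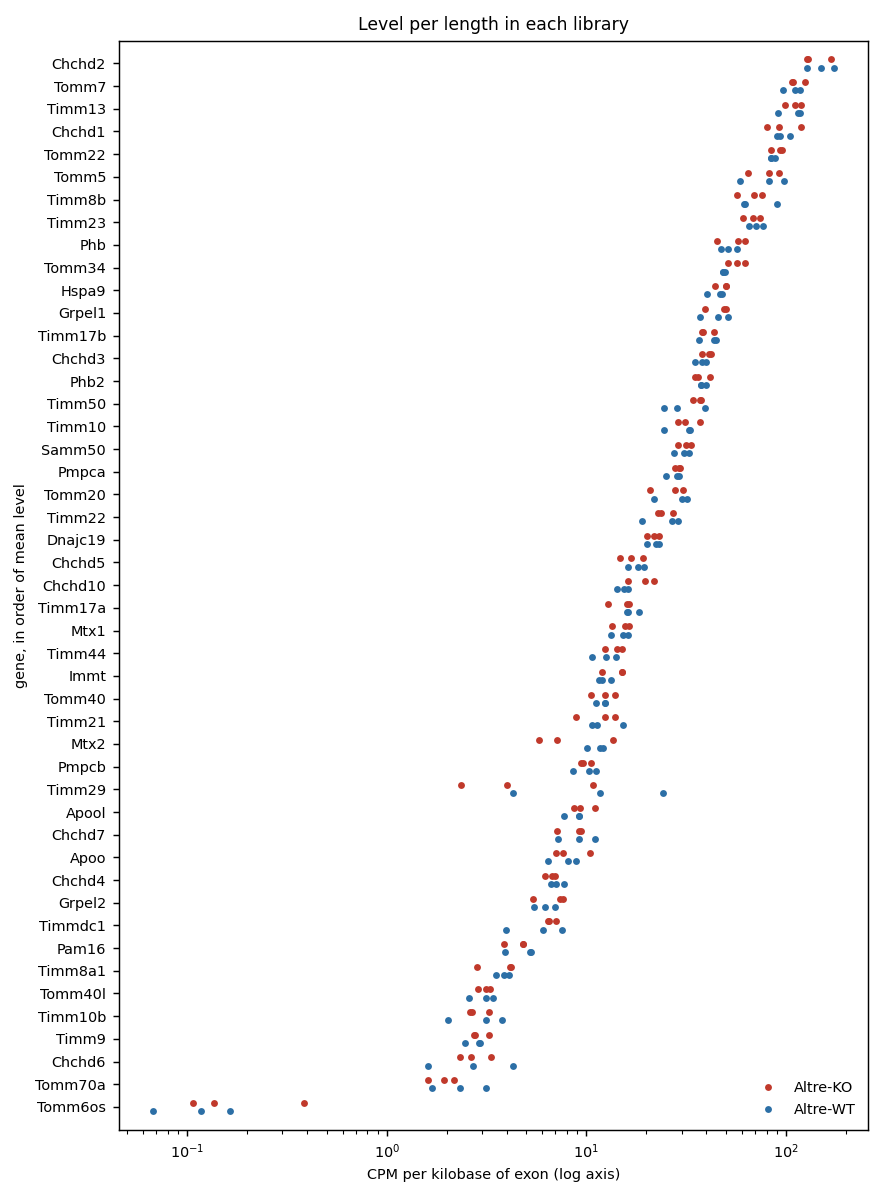
Level per length in each library (CPM per kilobase of exon, log axis) of the 47 members in order of their mean over 6 libraries, with Altre-KO as red points just above Altre-WT as blue points in each row. The genes run from Chchd2, with a mean of 146, to Tomm6os, with a mean of 0.162, and the points of both genotypes intermix in nearly every row.

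The members' summed level varied between libraries and overlapped between genotypes. The members' counts summed to 3557, 4035 and 3702 CPM in Altre-KO libraries 1, 2 and 3, against 3450, 3899 and 3816 CPM in Altre-WT libraries 1, 2 and 3. Within Altre-KO 27 members were lowest in library 1, and within Altre-WT 30 were, with 18 members lowest in library 1 of both. The share of all genes lowest there is not given here. In Altre-KO library 1 the median deviation from each gene's mean was -0.07 log2 units for members and 0.029 for all genes tested. In Altre-WT library 1 it was -0.15 for members and 0.0045 for all genes tested. The members highest in library 1 of both genotypes were 4, namely Tomm34, Mtx2, Timm29 and Pmpca.

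Promoter sequences (250 bases before to 50 after the start, RefSeq, GRCm38.p6) were found for 40 of the 47 members and searched on both strands. The ETS-factor letters CCGGAAG were in 18 of 40 member promoters (45%), in 20.2% of the promoters of genes in the table and in 9.9% of all 27025 genes with a promoter. The letters CCAAT of the CCAAT box were in 14 of 40 (35.0%), beside 43.1% and 41.1%. The YY1 letters GCCATNTT, where N is any base, were in 5 of 40 (12.5%), beside 10.1% and 7.0%, and no YY1 match shared bases with an ETS match. Such counts describe letters only.

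In 4 of the 5 members with the YY1 letters the match lay just after the start, and these are shown for that reason, from 10 bases before to 50 after the start. Capitals mark the match, which is on the minus strand relative to each gene and reads AANATGGC as printed, with the letters ATG in it.
Samm50, chr15:84192230-84192289, plus strand: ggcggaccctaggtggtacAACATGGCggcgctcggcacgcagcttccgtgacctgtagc
Mtx1, chr3:89213858-89213917, minus strand: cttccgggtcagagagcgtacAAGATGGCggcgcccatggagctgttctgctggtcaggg
Timm50, chr7:28311997-28312056, minus strand: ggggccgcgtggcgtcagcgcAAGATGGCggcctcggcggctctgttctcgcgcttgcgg
Timm44, chr8:4275856-4275915, minus strand: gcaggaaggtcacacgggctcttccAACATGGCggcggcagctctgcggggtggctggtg
The matches begin at base 10 of the transcript in Samm50, 12 in Mtx1 and Timm50 and 16 in Timm44, and Phb2 holds its matches upstream of the start. The genes differed in role and level, and their log2 fold changes were 0.04 for Samm50, 0.02 for Mtx1, 0.24 for Timm50, 0.15 for Timm44 and -0.02 for Phb2, none past the test. The factor's own gene, Yy1, averaged 26.5 ± 3.68 CPM in Altre-KO and 25.4 ± 6.36 CPM in Altre-WT, with a log2 fold change of 0.06 ± 0.23.

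A further 41 genes of mitochondrial protein import, processing, quality control, cardiolipin supply and stress response were listed, and 39 were tested. By edgeR 0 passed an adjusted p of 0.05; at an unadjusted p of 0.05 there were 5, 1 with a higher and 4 with a lower mean in Altre-KO, a share of 12.8% beside 5.82% of all genes. Pink1, the kinase that marks mitochondria whose import has failed, was at 25.04, 27.8 and 27.2 CPM in Altre-KO, against 51.7, 34.4 and 34.6 CPM in Altre-WT, and all Altre-KO libraries lay below all Altre-WT libraries. Its log2 fold change was -0.59 ± 0.20, with an adjusted p of 0.842 (edgeR). Afg3l2, a subunit of the matrix AAA protease held by the prohibitins, was at 86.4, 51.5 and 42.1 CPM in Altre-KO, against 108, 88.3 and 74.8 CPM in Altre-WT, with a log2 fold change of -0.59 ± 0.26 (adjusted p = 0.849, edgeR). Its groups overlapped through Altre-KO library 1, and the authors' deposited table gives -0.65 ± 0.16 (SE) with an adjusted p of 0.00557, from the same fit as its Timm29 value.

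Prelid3b, which carries phospholipid between the membranes, was at 69.8, 76.1 and 84.2 CPM in Altre-KO, against 94.9, 90.95 and 96.8 CPM in Altre-WT, with a log2 fold change of -0.30 ± 0.13 and groups that did not overlap. Atad3a, an inner membrane ATPase, was at 13.9, 7.54 and 13.4 CPM in Altre-KO, against 31.1, 29.9 and 8.60 CPM in Altre-WT, with a log2 fold change of -0.998 ± 0.44; Altre-WT library 3 was as low as the Altre-KO libraries. Xpnpep3, a peptidase that trims imported proteins after the matrix protease, was the one with a higher mean in Altre-KO, at 24.6, 18.8 and 29.3 CPM in Altre-KO, against 14.7, 20.1 and 14.0 CPM in Altre-WT, with a log2 fold change of 0.58 ± 0.24 and overlapping groups. The adjusted p of these 3 genes was 0.849, 0.849 and 0.845 in the edgeR test, so none passed. The richest 100 bases of the longest transcript were 83% G and C in Pink1, 82% in Afg3l2 and Prelid3b and 80% in Atad3a. Those 4 lower genes belong to the class of 80% or more, in which 60.1% of genes lay below 0. Of the other listed genes in that class, Atf4, Hspd1, Prelid1, Spg7 and Yy1 had log2 fold changes of 0.26, 0.13, 0.11, 0.32 and 0.06. Crls1 and Mipep, also in that class, were at -0.01 and -0.92. In Xpnpep3 the richest 100 bases were 62% G and C. The part of base composition in these values was not tested.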

How the data were processed

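The authors deposited 1 table of whole-number counts per gene for the 6 libraries, with, per the file headers, a mean normalized count (a signal over the libraries), log2 fold changes and their standard errors, a Wald score, and raw and adjusted p-values. Cutadapt, STAR, DESeq2 and the build mm10 appear in the submitters' processing notes, with no version or role. The counting tool, the annotation and any strand setting were not given in the sources used here. The authors' values are given as Altre-KO over Altre-WT; the terms of their fit are not stated.

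Of 13623 rows, 18 whose names had become dates (0.2945% to 0.3078% of a library's counts) were left out. Genes were tested in R 4.3.3 with edgeR 4.0.16 (quasi-likelihood F test, TMM, filterByExpr, a genotype term alone) on the whole table, with Benjamini-Hochberg adjustment over all genes tested. Alternatives were DESeq2 1.42.0, limma-voom (limma 3.58.1), DESeq2 size factors, other count filters, the replicate number as a block and leaving out each library. CPM used TMM-scaled totals. Within each genotype, chi-square per gene between libraries was 40.4 to 73.0, so no 2 libraries agreed within counting noise as 1 library deposited repeatedly would; whether they are separate animals is not shown by this. Gene models came from GENCODE M21 on GRCm38, the assembly of mm10, and were found for all 47 members. Similar copies were stretches of at least 200 bases at 95% identity.

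The members and gene lists were chosen with earlier results of these data known. Of the members, 31 were named by a rule: those called in a test, in each role group the 2 with the smallest p and the 1 with the highest level per length, and 13 core subunits. The fit was tested on simulated data.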

Additional observations from a re-analysis of the deposited data

How the results depend on the processing

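Over all genes, 49 passed an adjusted p of 0.05 with DESeq2 on genotype alone and 0 to 1 with edgeR when 1 library was left out. Same-numbered libraries deviated together at r = 0.208, 0.130 and 0.069 for replicates 1, 2 and 3 over 10690 genes, and at 0.65, 0.062 and 0.60 over 46 members. Not every pair exceeded 0.1 over all genes, so the number was not taken as a pairing. Over all genes each library correlated best with its own number, a hint from the data and not the design. Over the members that did not hold, as Altre-KO library 2 correlated best with Altre-WT library 3 (r = 0.247). Under the replicate block 16 genes passed in edgeR and 269 in DESeq2; of the members edgeR called 0, with 1 lower at an unadjusted p (Timm29, log2 fold change -1.19, adjusted p = 0.0791), and DESeq2 called 1 (Timm29, -1.20, adjusted p = 1.4e-05), the 1 lower member there too; 244 of the 269 genes were also called in the authors' deposited table. Leaving out 1 library, members at an unadjusted p of 0.05 were 0 to 2 lower and 0 to 1 higher. The shares of all genes at that p are not given here for those fits. These counts are therefore not read as a result about the members. Over the same fits members with a higher mean were 16 to 32, and the median log2 fold change was -0.04 to 0.05. Timm29 was below 0 in all 13 alternatives, from -2.07 to -0.48. Of 402 alternative values of the 31 named members, 28 in 16 members turned sign, none past 0.137 in size. Leaving out 1 library gave log2 fold changes of -0.18 to 0.089 for Timm22 (0.0036 by limma-voom), -0.15 to 0.0051 for Timm23, -0.19 to 0.11 for Timm8b, -0.13 to 0.055 for Pmpcb, -0.24 to 0.052 for Tomm20, -0.070 to 0.12 for Tomm40, -0.017 to 0.11 for Tomm7, -0.025 to 0.10 for Samm50, -0.016 to 0.20 for Timm10, -0.082 to 0.10 for Timm13, -0.019 to 0.22 for Phb, -0.10 to 0.031 for Phb2, -0.30 to 0.14 for Timm10b, -0.013 to 0.11 for Pmpca, -0.25 to 0.020 for Chchd2 and -0.044 to 0.39 for Timmdc1. The other named members kept their sign without any 1 library, at -0.80 to -0.11 for Mtx2, -0.54 to -0.07 for Tomm70a, -0.24 to -0.06 for Timm17a, -0.17 to -0.07 for Chchd4, 0.07 to 1.16 for Tomm6os, 0.01 to 0.16 for Hspa9, 0.04 to 0.23 for Apool, 0.06 to 0.24 for Timm44, 0.10 to 0.44 for Timm50, 0.05 to 0.15 for Tomm22, 0.06 to 0.14 for Chchd3, 0.13 to 0.31 for Immt, 0.15 to 0.29 for Tomm34 and 0.23 to 0.44 for Chchd10. The cause of these differences was not tested.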
